A study of Danio rerio with 24 samples.

Results

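The calretinin genes calb2a and calb2b and the parvalbumin gene pvalb6 were followed in zebrafish retinas and whole embryos of young (yng) mutants and wild-type (WT) animals. Every probe set to which the platform annotation gives one of these symbols was taken, which gave 1 probe set for each gene, that is 3 of 15502 probe sets and 3 of 8793 distinct gene symbols. The probe sets were Dr.11068.1.A1_at for calb2b, Dr.7048.1.A1_at for calb2a and Dr.14147.1.S1_at for pvalb6, and by the maker's convention this suffix marks probes designed to match a single transcript. The parvalbumins of muscle, pvalb1 to pvalb4, were left out. The genes had been selected on these data, by their low intensities in yng against WT retinas at 52 hours post fertilization (hpf), so each comparison that uses a retina array of that age is given as a description, with no test.

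Calretinin and parvalbumin are EF-hand proteins, small cytosolic proteins that bind calcium and so shape how its concentration rises and decays in a cell. Zebrafish carry calretinin as a pair of genes, calb2a and calb2b, and parvalbumin as a larger family whose members serve muscle or neurons. In vertebrate retinas calretinin is found in ganglion cells and amacrine cells, and parvalbumin in amacrine cells. Outside the eye both proteins mark classes of neurons, and calretinin also marks sensory hair cells. In yng animals the mutated gene is smarca4a (brg1), the motor subunit of SWI/SNF complexes, which remodel chromatin, and the mutant is known for a retina whose cells do not complete differentiation.

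RNA came from yng retinas at 52 hpf, WT retinas at 52 hpf, yng retinas at 36 hpf and WT retinas at 36 hpf, and from yng and WT whole embryos at the same ages, which made 8 groups of 3 arrays. Each array took amplified RNA, made from 33 ng of total RNA. A pool held 10 whole embryos or 10 retinas, but for yng retinas at 36 hpf it held 20, taken from 10 embryos. The labels give the strain as AB, except for 1 WT embryo sample at 36 hpf whose label names none, and yng animals were staged by their WT siblings. Values are probe set intensities on a linear scale, and differences are log2 differences of quantile-normalized intensity + 16, given ± SE of a model shared by all 8 groups. Adjusted p is limma's, over all 15502 probe sets, and a change was called where it was below 0.05. Because a pool mixes cells, fewer cells of a type and less RNA per cell cannot be told apart, and the p-values measure the spread between pools, not between animals.

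Array medians ran from 145 to 165 in retinas and from 223 to 241 in embryos. The brighter probe set of smarca4a read 757 to 1251 on the 12 yng arrays and 3134 to 4158 on the 12 WT arrays. In yng and in WT at 36 hpf, 6 of 6 measured retina markers were higher in retinas than in embryos, where 51.8% of all probe sets in yng and 51.1% in WT were called higher in retinas. The muscle parvalbumins pvalb2 and pvalb4 were listed at 0 on all 12 retina arrays. All yng arrays were washed on one fluidics station and all WT arrays on another, so a station effect and a genotype effect cannot be told apart. On each station every combination of tissue and age had its own module. A module effect therefore cannot be told apart from an effect of tissue or age. Replicate 1 of WT retinas at 36 hpf stood apart in its group. The 8 measured genes listed as markers of brain regions outside the eye summed to 1518 there, against 619 and 447 on the other arrays. On yng retinas at 36 hpf the sums were 613, 679 and 649. WT retinas at 52 hpf summed higher, to 1894 to 2221, so the list is not specific to tissue outside the eye. On replicate 1 of WT retinas at 36 hpf the hindbrain gene hoxb3a read 303, against 20.1 and 26.3 on the other WT arrays. The marker dmbx1a read 375, against 76.8 and 16.9, and en2a, en2b and egr2b were also highest there. Not all markers were raised: emx2 read 49.5, against 87.2 and 58.6, and gbx2 and hoxb4a lay between the other WT arrays. On that array none of the 8 markers was listed at 0. Each value that rests on that array is therefore given with and without it where the array changes its direction or its call.

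In retinas at 52 hpf all 3 genes were low in yng and high in WT. The intensity of calb2b was 292, 292 and 338 in yng retinas, against 5106, 4977 and 5144 in WT retinas. The WT arrays lay within a narrow band, and no yng array came near it. For pvalb6 the intensities were 34.4, 39.1 and 53.6 in yng retinas and 619, 548 and 500.3 in WT retinas. The second calretinin gene, calb2a, read 228, 285 and 238 in yng retinas and 1845, 1935 and 2069 in WT retinas. In each gene the 3 yng arrays lay below the 3 WT arrays, which was so for 15.4% of all probe sets in this comparison, and nothing is read from this because these values chose the genes.

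On the normalized scale the difference between yng and WT retinas at 52 hpf was -3.79 ± 0.20 for calb2b, -3.28 ± 0.16 for pvalb6 and -2.71 ± 0.23 for calb2a (n = 3 arrays a group). These were places 4, 12 and 32 among the falls of 15502 probe sets. As ratios of mean intensity, calb2b was 16.5 times, pvalb6 13.1 times and calb2a 7.79 times lower in yng. The pvalb6 intensities in yng retinas were dim, at 34.4 to 53.6, which limits how well the size of its fall is known. The log2 ratio of the 3' to the 5' probe set of gapdh was 3.02 in yng and 2.66 in WT retinas. This ratio can reflect RNA integrity or the amplification of the RNA, which cannot be told apart here. Its part in the differences between yng and WT retinas was not tested. Most genes listed as markers of ganglion cells, and of amacrine and horizontal cells together, were lower on the same yng arrays. The summed intensity of 5 ganglion cell markers was 4179 to 4971 in yng and 10929 to 12648 in WT retinas at 52 hpf, with a median difference of -1.78 over the list. That of 9 amacrine and horizontal cell markers was 7706 to 8817 in yng and 18123 to 18921 in WT retinas, with a median difference of -1.13. The median over all probe sets was 0.04, no marker of either list was at 0 in every array of a group, and the part of these cell types in the differences was not tested.

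**Figure D1:**
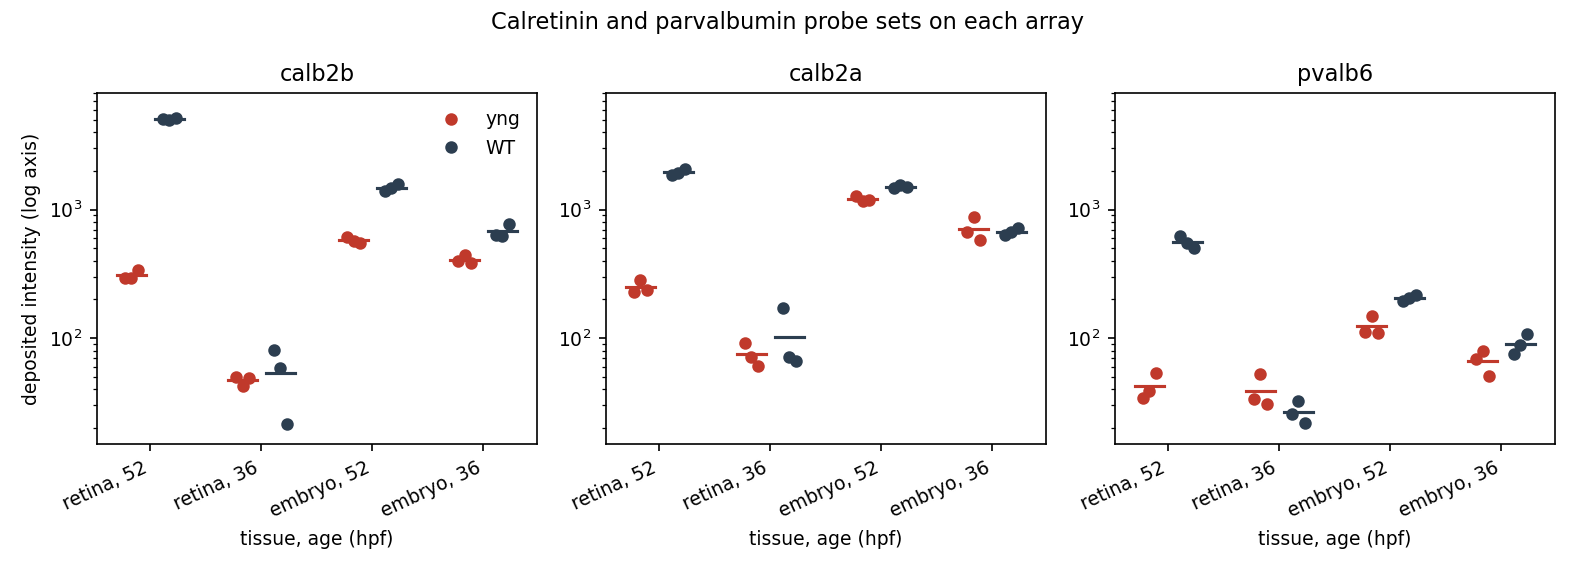
Deposited intensity (log axis) of calb2b, calb2a and pvalb6 on each of the 24 arrays, by tissue and age, with yng in red left of WT in dark blue; each point is 1 array and each bar the mean of 3. WT retinas at 52 hpf lie highest for all 3 genes, with calb2b at 4977 to 5144 there, against 292 to 338 in yng retinas of that age.

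At 36 hpf 0 of the 3 genes passed limma's test between yng and WT retinas, and 0 had an unadjusted p below 0.05, while 9.08% of all probe sets passed (1408, or 2865 with the replicate number as a block). The calb2b intensities were 50.1, 42.1 and 49.4 in yng retinas, against 80.5, 58.3 and 21.6 in WT retinas, so the WT arrays lay on both sides of the yng arrays. The difference was -0.09 ± 0.20, with a 95% interval of -0.51 to 0.33 (limma adjusted p = 0.867). The calb2a intensities were 91.5, 71.3 and 61.2 in yng retinas and 171, 70.8 and 66.6 in WT retinas. Only the first WT array was above all yng arrays, and the difference was -0.35 ± 0.23, with an interval of -0.82 to 0.13 (limma adjusted p = 0.429). For pvalb6 the intensities were 33.5, 52.2 and 30.9 in yng retinas and 25.7, 32.4 and 21.9 in WT retinas. These groups overlapped, and the difference was 0.26 ± 0.16, with an interval of -0.07 to 0.60 (limma adjusted p = 0.385). On these arrays calb2b read 21.6 to 80.5 and pvalb6 21.9 to 52.2, below the array medians of 145 to 154. Such dim signals limit how large a fall could be seen, so the missing calls do not show equal levels.

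The array with the high sum of brain markers, replicate 1 of WT retinas at 36 hpf, carried the highest intensity of calb2a and of calb2b in its group. Without it the difference at 36 hpf was 0.07 for calb2a (limma adjusted p = 0.88) and 0.22 for calb2b (limma adjusted p = 0.57), both with the sign turned. Leaving out replicate 3 of WT retinas instead, where calb2b was at its lowest, gave calb2b -0.46 (limma adjusted p = 0.0298), which passed. The part of the brain markers in these values was not tested.

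Most genes listed as markers of ganglion cells, and of amacrine and horizontal cells together, were lower in yng retinas at 36 hpf. The first list includes genes of neurons such as elavl3, so it is not specific to ganglion cells. Of 5 measured ganglion cell markers 4 fell and 0 rose, with a median of -2.03 over the list. They were stmn2a, which encodes a stathmin of growing axons (-2.61), gap43, a growth cone protein (-2.25), elavl3, an RNA-binding protein of neurons (-2.03), and isl1a, a LIM homeodomain factor (-1.93). Of 9 measured markers of amacrine and horizontal cells 5 fell and 0 rose, with a median of -1.04. The largest falls were those of slc32a1, the vesicular transporter of inhibitory transmitters (-1.72), and prox1a, a homeodomain factor (-1.49). Over all probe sets the median was 0.02, and 4.19% were called higher and 4.9% lower. The ganglion cell markers summed to 868 to 1277 in yng retinas and 3780 to 5049 in WT retinas, the amacrine and horizontal cell markers to 1641 to 2267 in yng and 2759 to 4459 in WT, and none of these markers was listed at 0 in every array of a group. The calb2b and pvalb6 signals were dim on these arrays, which limits how large a fall could be seen in them. Whether these markers differed from the calretinin and parvalbumin genes was not tested.

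The change with age in retinas is described for each genotype, with the 52 hpf arrays shared between it and the genotype comparison at that age. In WT retinas calb2b averaged 5076 ± 88 at 52 hpf and 53.5 ± 29.7 at 36 hpf (SD, n = 3 each), a log2 difference of 6.02 ± 0.20 that was the largest of all 15502 probe sets. The 36 hpf intensities behind it were 21.6 to 80.5, near the offset of 16, so its size rests on dim signals: with an offset of 64 it was 5.34 and still the largest, with an offset of 1 it was 6.34 and place 3, and without 1 array at a time it ran from 5.65 to 6.33. For calb2a the WT means were 1949 ± 113 at 52 hpf and 103 ± 59 at 36 hpf, a difference of 3.93 ± 0.23, which was place 28. For pvalb6 they were 556 ± 60 at 52 hpf and 26.7 ± 5.3 at 36 hpf, a difference of 3.53 ± 0.16 and place 48 by size. All 3 genes had 3 arrays at 52 hpf above the 3 at 36 hpf in WT retinas, as had 18.2% of all probe sets.

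In yng retinas calb2b averaged 307 ± 27 at 52 hpf and 47.2 ± 4.4 at 36 hpf, a log2 difference of 2.32 ± 0.20. The calb2a means were 250.3 ± 30.6 at 52 hpf and 74.7 ± 15.4 at 36 hpf, a difference of 1.56 ± 0.23. In both calretinin genes the 3 older yng arrays lay above the 3 younger ones, as in 17.1% of all probe sets. The pvalb6 means were 42.4 ± 10.0 at 52 hpf and 38.9 ± 11.6 at 36 hpf in yng retinas. The pvalb6 groups overlapped, and the difference of -0.01 ± 0.16 changed sign with the scaling and with the arrays left out. The pvalb6 intensities behind it, 34.4 to 53.6 at 52 hpf and 30.9 to 52.2 at 36 hpf, lay below the array medians. A small change could hardly be seen in signals this dim.

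The cell type markers moved with age on the same retina arrays. The ganglion cell markers had a median difference between 52 and 36 hpf of 1.62 in yng and 1.41 in WT retinas, and the amacrine and horizontal cell markers one of 2.04 in yng and 2.32 in WT retinas. Over all probe sets the median was -0.06 in yng and -0.09 in WT retinas. The 3' to 5' log2 ratio of gapdh was 3.02 at 52 hpf and 2.83 at 36 hpf in yng retinas, and 2.66 at 52 hpf and 3.05 at 36 hpf in WT retinas. The part of these values in the age differences was not tested.

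**Figure D2:**
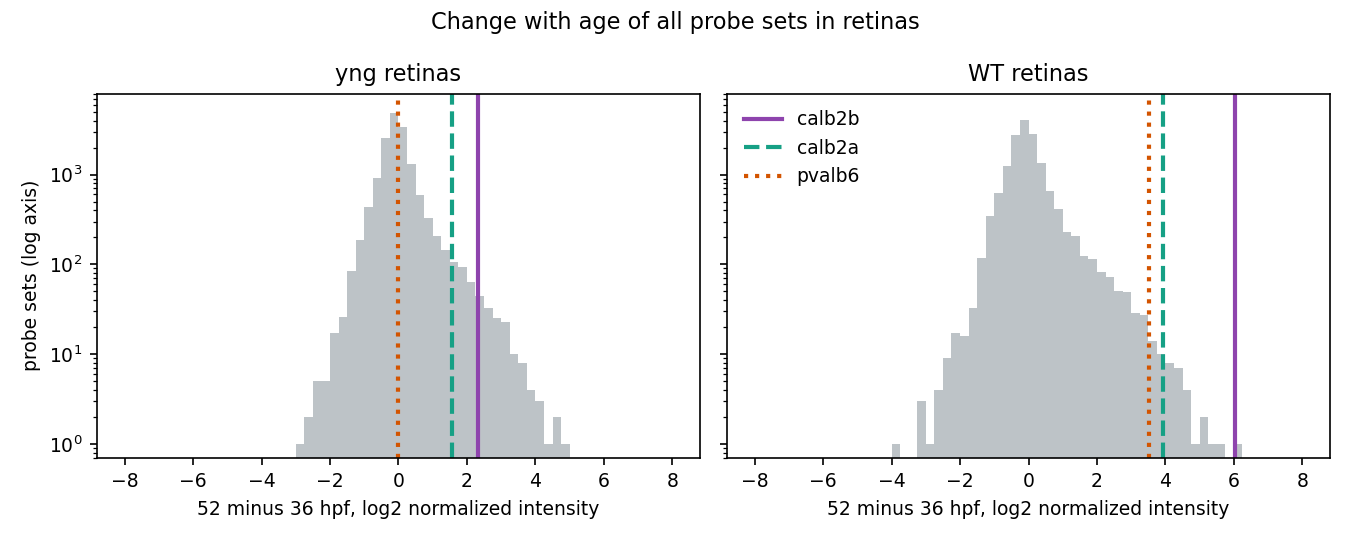
Number of probe sets (log axis) by their log2 difference between 52 and 36 hpf, in yng retinas on the left and WT retinas on the right, with the 3 genes as vertical lines. In WT retinas calb2b stands at 6.02, at the far edge of all probe sets, and in yng retinas at 2.32, while pvalb6 stands at 3.53 in WT retinas and at -0.01 in yng retinas.

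Set against the younger WT retinas, yng retinas at 52 hpf had more calretinin signal. The calb2b difference between yng retinas at 52 hpf and WT retinas at 36 hpf was 2.23 ± 0.20 and that of calb2a 1.21 ± 0.23, and in both the 3 older yng arrays lay above the 3 younger WT arrays, which was so for 18.1% of all probe sets. For pvalb6, dim in both groups, the difference was 0.25 ± 0.16 and the arrays overlapped on the normalized scale. All 3 values share their arrays with comparisons above.

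Whole embryos gave tests on arrays other than the retina arrays by which the genes were chosen. Earlier results of these data were known, however, when the choice was made. A whole embryo also includes its retinas, so these tests are not independent of the tissue in which the genes were chosen. The 6 measured retina markers summed to 2978 to 3992 in yng and 2939 to 3273 in WT embryos at 52 hpf. At 36 hpf they summed to 1437 to 1668 in yng and 1001 to 1085 in WT embryos, without overlap. In limma's test 0 passed at 52 hpf (1 lower at an unadjusted p below 0.05), and 1 rose and 0 fell at 36 hpf. Shares of all probe sets called were 2.77% higher and 3.13% lower at 52 hpf, and 2.78% and 3.17% at 36 hpf. The part of the retinas in the embryo values was not tested. At 52 hpf calb2b was lower in yng embryos, with intensities of 615, 568 and 547, against 1383, 1463 and 1593 in WT embryos. The groups did not overlap, and the difference was -1.41 ± 0.20 (limma adjusted p = 1e-04), or 2.57 times lower as a ratio of mean intensity. The pvalb6 intensities were 112, 148 and 110.1 in yng embryos and 194, 207 and 219 in WT embryos. Every yng array lay below every WT array, and pvalb6 fell by 0.66 ± 0.16 on the log2 scale (limma adjusted p = 0.0147). For calb2a the intensities were 1283, 1172 and 1191 in yng embryos and 1482, 1545 and 1509 in WT embryos. The calb2a groups did not overlap either, but the difference of -0.34 ± 0.23 did not pass, with an interval of -0.81 to 0.13 (limma adjusted p = 0.524). That SE comes from all 8 groups. The SD of calb2a was 0.04 in WT and 0.10 in yng embryos at 52 hpf, but 0.72 in WT retinas at 36 hpf. A fit of only the groups compared did not pass either (limma adjusted p = 0.147).

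Among all probe sets 3.13% were called lower in yng embryos at 52 hpf (calls in both directions were 915, or 2116 with the replicate number as a block), and 10.8% had all yng arrays below all WT arrays, against 2 called and 3 not overlapping of the 3 genes. The pvalb6 call was lost without replicate 2 of WT embryos (limma adjusted p = 0.0504), replicate 3 of WT embryos (limma adjusted p = 0.0629), replicate 1 of yng embryos (limma adjusted p = 0.0639) or replicate 3 of yng embryos (limma adjusted p = 0.0841), each at 52 hpf, with differences of -0.77 to -0.58 over all 6 arrays left out in turn. The calb2b call held without each of the 6 arrays, with differences of -1.46 to -1.36.

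At 36 hpf calb2b read 398, 441 and 386 in yng embryos, against 637, 621 and 780 in WT embryos. The groups did not overlap, and calb2b fell by 0.70 ± 0.20 (limma adjusted p = 0.0426), where 3.17% of all probe sets were called lower (calls in both directions were 922, or 2247 with the replicate block) and 11.7% had all yng arrays below. The call was lost on the intensities as deposited (-0.71, limma adjusted p = 0.0511) and with an offset of 1 (-0.72, limma adjusted p = 0.112), and the model without the three-way interaction, which ties this difference to the retinas at 52 hpf, gave 0.048. It also rested on all 6 arrays, since leaving out any one of them gave -0.77 to -0.61 with limma adjusted p from 0.0664 to 0.151. The pvalb6 intensities were 69.0, 79.8 and 50.9 in yng embryos and 75.2, 88.9 and 108 in WT embryos, which overlapped, and the difference of -0.37 ± 0.16 did not pass (interval -0.71 to -0.04, limma adjusted p = 0.211). For calb2a the intensities were 672, 878 and 583 in yng embryos and 631, 665 and 713 in WT embryos. The WT arrays lay inside the range of the yng arrays, with a difference of 0.10 ± 0.23 (interval -0.37 to 0.57, limma adjusted p = 0.89).

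**Figure D3:**
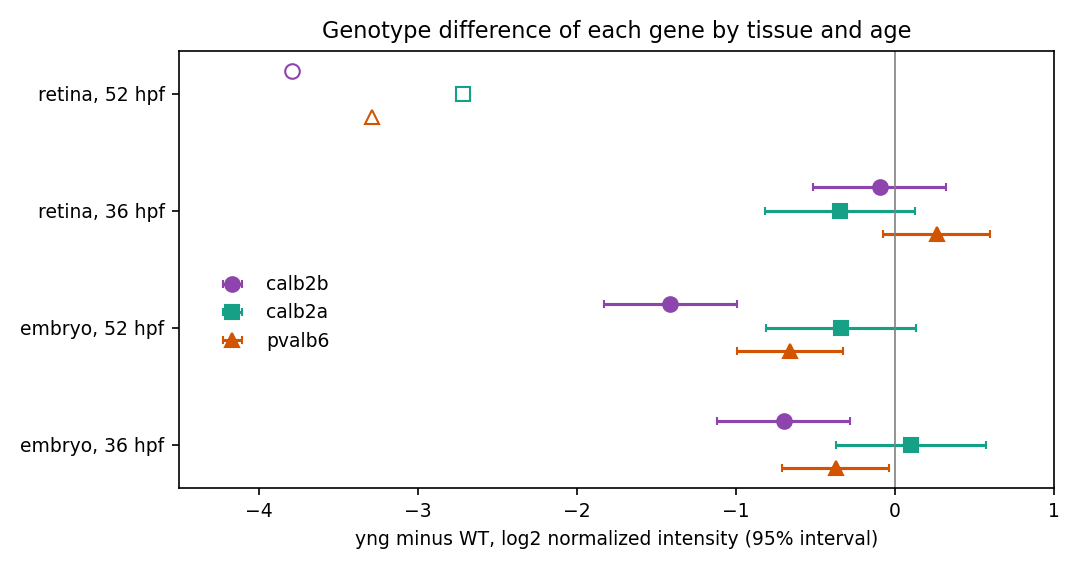
Log2 difference of normalized intensity, yng minus WT, for calb2b (circles), calb2a (squares) and pvalb6 (triangles) in each tissue and age, with 95% intervals of the model; open symbols mark the retinas at 52 hpf, where the genes were chosen and no interval or test is given. In embryos calb2b lies at -1.41 and -0.70, pvalb6 at -0.66 and -0.37, and calb2a at -0.34 and 0.10.

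The difference in the genotype effect between the genes was itself tested in embryos, after the values had been seen. Over 6 yng and 6 WT arrays, permuted within each age, the calb2b difference was lower than that of its duplicate calb2a by 0.94 on the log2 scale (two-sided exact permutation p = 0.005, the smallest that 400 arrangements can give, adjusted p = 0.015 over 3 pairs). The calb2b difference was below that of pvalb6 by 0.54 (exact permutation p = 0.01, adjusted p = 0.015). The pvalb6 difference was below that of calb2a by 0.40 (exact permutation p = 0.015, adjusted p = 0.015). All 3 pairs passed with the intensities as deposited, with other offsets and with each of the 12 arrays left out. The permutation did not keep arrays of the same replicate number together, so its p-values make no allowance for a pairing by number. In replicate 2 at 52 hpf the pvalb6 difference (-0.43) was not below that of calb2a (-0.48).

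Whether the genotype difference in embryos changed with age was tested as an interaction, and 0 of the 3 genes passed limma's test, with 1 at an unadjusted p below 0.05. The interaction was -0.71 ± 0.28 for calb2b (interval -1.30 to -0.12, limma adjusted p = 0.927), -0.44 ± 0.32 for calb2a and -0.29 ± 0.23 for pvalb6 (limma adjusted p = 1 for both), where 0.194% of all probe sets passed.

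Markers of other cell types were read in the same embryos, where 3.13% of all probe sets were called lower at 52 hpf and 3.17% at 36 hpf. Of 5 ganglion cell markers 0 passed in either direction at 52 hpf and 0 at 36 hpf in limma's test, and at an unadjusted p below 0.05 the counts were 2 lower at 52 hpf and 0 at 36 hpf. Their summed intensity at 52 hpf was 8756 to 9023 in yng embryos and 10938 to 11937 in WT embryos. At 36 hpf it was 6604 to 7031 in yng and 6913 to 8621 in WT embryos. WT retinas at 36 hpf had 3780 to 5049, so in whole embryos the list is not specific to ganglion cells of the retina. Of 9 amacrine and horizontal cell markers 1 fell at 52 hpf, gad2, which encodes a GABA-synthesizing enzyme (-1.20, limma adjusted p = 0.0186), and 0 passed at 36 hpf, where 1 was lower at an unadjusted p below 0.05. At 52 hpf 4 of the 9 were lower at an unadjusted p below 0.05, with a median of -0.40 over the list. This list summed to 10126 to 11054 in yng and 13100 to 14412 in WT embryos at 52 hpf. At 36 hpf it summed to 6859 to 7477 in WT embryos and 2759 to 4459 in WT retinas, so it too is not specific to retinal cells in whole embryos. Of 3 measured hair cell markers 1 fell at 52 hpf, otofa, the otoferlin gene of hair cell synapses (-0.68, limma adjusted p = 0.00265), with list sums of 496 to 623 in yng and 651 to 771 in WT embryos. WT retinas at 52 hpf summed to 678 to 724 on the hair cell list, so it is not specific to hair cells. Of 8 measured markers of brain regions outside the eye 0 rose and 1 fell at 52 hpf, gbx2, a homeodomain factor (-0.65, limma adjusted p = 0.00648), and the list summed to 3847 to 4497 in yng and 4899 to 5209 in WT embryos, without overlap. The brain list also read 1894 to 2221 in WT retinas at 52 hpf, so it is not specific to brain. At 36 hpf 1 rose and 0 fell, egr2b, a hindbrain zinc finger factor (1.60, limma adjusted p = 0.00266), and the sums overlapped, at 3768 to 4225 in yng and 3225 to 3942 in WT embryos. No marker of these 4 lists was at 0 in every array of an embryo group. The 3' to 5' log2 ratio of gapdh was 3.12 in yng and 2.86 in WT embryos at 52 hpf, and 3.17 in yng and 3.10 in WT embryos at 36 hpf. The part of these values in the embryo differences was not tested.

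With age, all 3 genes rose in WT embryos. The difference between 52 and 36 hpf was 1.20 ± 0.23 for calb2a (limma adjusted p = 0.000865), 1.16 ± 0.20 for calb2b (limma adjusted p = 0.000402) and 1.00 ± 0.16 for pvalb6 (limma adjusted p = 0.000197), with no overlap between the ages in any of them. The mean intensity of calb2b in WT embryos, for example, was 1480 ± 106 at 52 hpf and 679 ± 87 at 36 hpf (SD, n = 3 each). Among all probe sets 7.34% were called higher at 52 hpf in WT embryos and 14.4% had all older arrays above.

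Some of the markers listed for neurons and brain regions were higher in the same older WT embryos. Among all probe sets 7.34% were called higher and 6.99% lower there. Of 9 amacrine and horizontal cell markers 5 rose and 0 fell, with sums of 13100 to 14412 at 52 hpf and 6859 to 7477 at 36 hpf. Of 5 ganglion cell markers 2 rose and 0 fell, with sums of 10938 to 11937 at 52 hpf and 6913 to 8621 at 36 hpf. Of 8 brain markers 2 rose and 0 fell, with sums of 4899 to 5209 at 52 hpf and 3225 to 3942 at 36 hpf. The gapdh ratio was 2.86 at 52 hpf and 3.10 at 36 hpf, and the part of these values in the rises was not tested.

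In yng embryos pvalb6 rose by 0.71 ± 0.16 (limma adjusted p = 0.00649) and calb2a by 0.76 ± 0.23 (limma adjusted p = 0.0387), where 5.04% of all probe sets were called higher. The calb2b intensity averaged 577 ± 35 at 52 hpf and 408 ± 29 at 36 hpf in yng embryos, and although the ages did not overlap, as in 12.4% of all probe sets, the difference of 0.44 ± 0.20 did not pass (interval 0.03 to 0.86, limma adjusted p = 0.217). The SE shared by all groups includes WT retinas at 36 hpf, where calb2b had its largest SD, 0.69 on the log2 scale. A fit of only the groups compared gave limma adjusted p = 0.0631 for calb2b. The calb2a call was lost without any one of 5 of the 6 arrays (limma adjusted p from 0.0709 to 0.192) and held only without replicate 2 at 36 hpf. The pvalb6 call was lost without replicate 3 of yng embryos at 36 hpf (limma adjusted p = 0.058).

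The genes were next compared between tissues. At 36 hpf the 2 calretinin genes were lower in retinas than in embryos of either genotype. In yng, calb2a averaged 74.7 ± 15.4 in retinas and 711 ± 151 in embryos, a difference of -2.56 ± 0.23 (limma adjusted p = 3.27e-09), and calb2b 47.2 ± 4.4 in retinas and 408 ± 29 in embryos, a difference of -2.27 ± 0.20 (limma adjusted p = 3.15e-09). In WT the differences were -2.11 ± 0.23 for calb2a (limma adjusted p = 7.1e-08) and -2.88 ± 0.20 for calb2b (limma adjusted p = 7.8e-11). The retina arrays lay below the embryo arrays in both genes and genotypes. This was so for 23.2% of all probe sets in yng and 22.4% in WT, and 23.2% and 22.4% were called lower in retinas.

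For pvalb6 at 36 hpf the retina was lower than the embryo in WT, with means of 26.7 ± 5.3 in retinas and 90.6 ± 16.3 in embryos and a difference of -0.75 ± 0.16 (limma adjusted p = 0.00035). In yng the pvalb6 means were 38.9 ± 11.6 in retinas and 66.6 ± 14.6 in embryos. The normalized arrays overlapped there and the difference of -0.12 ± 0.16 did not pass (limma adjusted p = 0.522), whereas on the intensities as deposited it was -0.59 and passed (limma adjusted p = 0.00531). Quantile normalization moved the median tissue difference of all probe sets, which was 0.40 in yng and 0.39 in WT, against -0.05 and -0.08 as deposited. Of the probe sets called between tissues at 36 hpf, 69% in yng and 69.5% in WT were higher in retinas, against 38.9% and 33.4% as deposited. Set against the median of all probe sets, pvalb6 in yng was lower in retinas on both scales.

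The difference in the genotype effect between retinas and embryos at 36 hpf passed limma's test for 0 of the 3 genes, with 2 at an unadjusted p below 0.05. It was 0.61 ± 0.28 for calb2b (interval 0.01 to 1.20, limma adjusted p = 0.439), 0.64 ± 0.23 for pvalb6 (interval 0.16 to 1.11, limma adjusted p = 0.207) and -0.45 ± 0.32 for calb2a (interval -1.11 to 0.22, limma adjusted p = 0.756), where 2.37% of all probe sets passed. Without replicate 1 of WT retinas the calb2b value was 0.91 and passed (limma adjusted p = 0.032).

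At 52 hpf the tissue difference is described only. In yng animals all 3 genes read lower in retinas than in embryos, with differences of -0.39 ± 0.20 for calb2b, -0.84 ± 0.16 for pvalb6 and -1.76 ± 0.23 for calb2a, and 23.5% of all probe sets had every retina array below every embryo array, as these had. In WT animals all 3 genes read higher in retinas than in embryos, by 1.99 ± 0.20 for calb2b, 1.78 ± 0.16 for pvalb6 and 0.61 ± 0.23 for calb2a, without overlap, which was so for 51.5% of all probe sets. Quantile normalization moved the median tissue difference of all probe sets here too. It was 0.395 in yng and 0.373 in WT, against -0.027 and -0.022 as deposited. As ratios of mean intensity, WT retinas at 52 hpf had 3.43 times the calb2b, 2.69 times the pvalb6 and 1.29 times the calb2a signal of WT embryos.

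The order of the 8 groups was headed by WT retinas at 52 hpf and then WT embryos at 52 hpf for each of the 3 genes. For calb2b the normalized log2 level was 12.38 ± 0.02 in WT retinas at 52 hpf and 10.39 ± 0.10 in WT embryos at 52 hpf. Then came 9.24 ± 0.16 in WT embryos at 36 hpf, 8.98 ± 0.09 in yng embryos at 52 hpf, 8.59 ± 0.09 in yng retinas at 52 hpf, 8.54 ± 0.11 in yng embryos at 36 hpf, 6.36 ± 0.69 in WT retinas at 36 hpf and 6.27 ± 0.10 in yng retinas at 36 hpf (SD, n = 3 each). Neighbours overlapped in 2 places of this order, between yng retinas at 52 hpf and yng embryos at 36 hpf, and between the retinas of both genotypes at 36 hpf.

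For calb2a the log2 level was 11.04 ± 0.06 in WT retinas at 52 hpf, 10.42 ± 0.04 in WT embryos at 52 hpf, 10.08 ± 0.10 in yng embryos at 52 hpf and 9.32 ± 0.31 in yng embryos at 36 hpf. It was 9.22 ± 0.04 in WT embryos at 36 hpf, 8.32 ± 0.14 in yng retinas at 52 hpf, 7.11 ± 0.72 in WT retinas at 36 hpf and 6.77 ± 0.25 in yng retinas at 36 hpf. Here the embryos of both genotypes at 36 hpf overlapped, and so did the retinas of both genotypes at 36 hpf.

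The pvalb6 level was 9.32 ± 0.12 in WT retinas at 52 hpf and 7.53 ± 0.08 in WT embryos at 52 hpf, and each stood clear of the next group. From there the order ran 6.88 ± 0.20 in yng embryos at 52 hpf, 6.53 ± 0.21 in WT embryos at 36 hpf, 6.16 ± 0.27 in yng embryos at 36 hpf, 6.05 ± 0.27 in yng retinas at 36 hpf, 6.03 ± 0.25 in yng retinas at 52 hpf and 5.78 ± 0.13 in WT retinas at 36 hpf. All neighbours among these 6 groups overlapped. On the intensities as deposited, places 5 and 6 of calb2b and places 6 and 7 of pvalb6 changed over, and the order was otherwise as given.

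Over the 8 group means the levels of calb2b and calb2a correlated with r = 0.937, those of calb2b and pvalb6 with r = 0.905 and those of calb2a and pvalb6 with r = 0.806. These are descriptions over 8 points that share arrays, tissues and ages and include the retina arrays at 52 hpf, by which the genes were chosen. Among 4179 candidate genes the 5 most like calb2b were gnb5b, a G protein beta subunit (r = 0.990), jpt1b (r = 0.982), map7b, which encodes a microtubule-associated protein (r = 0.966), lin7a, a scaffold protein of synapses (r = 0.965), and kcnd3, a voltage-gated potassium channel (r = 0.959). For calb2a they were atp6v1h, a subunit of the vacuolar proton pump (r = 0.993), robo2, a receptor in axon guidance (r = 0.991), cxxc5a, a zinc finger gene (r = 0.989), lin7a (r = 0.988) and rab11bb, a small GTPase of recycling endosomes (r = 0.988). For pvalb6 they were dusp2, a phosphatase of MAP kinases (r = 0.978), elmo1, an activator of Rac signalling (r = 0.958), kcnd3 (r = 0.946), fosl2, an AP-1 transcription factor (r = 0.938), and olfm2a, an olfactomedin (r = 0.930). Taken over the 24 arrays instead of the group means, 3 of the 5 genes for calb2b, 2 of the 5 for calb2a and 4 of the 5 for pvalb6 were named again.

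**Figure D4:**
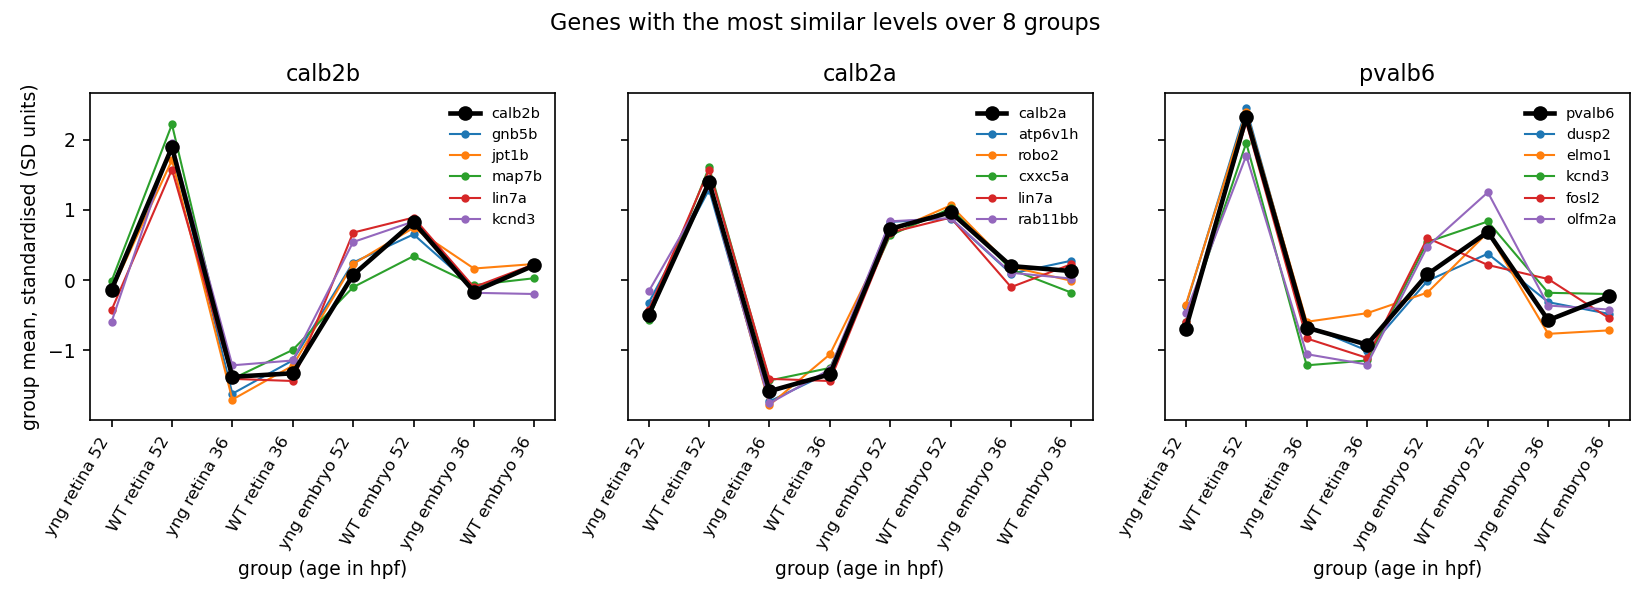
Group means of normalized log2 intensity, standardised to SD units for each gene over the 8 groups, for calb2b, calb2a and pvalb6 (black, thick) and the 5 genes most like each (thin, coloured), with yng left of WT in each tissue and age. All profiles peak in WT retinas at 52 hpf, and correlations with the black profile run from 0.930 to 0.993.

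The rest of the parvalbumin family and calb1, which encodes calbindin, were read for comparison. The muscle parvalbumin pvalb2 was listed at 0 on every retina array and read 10860 to 12510 on yng and 10450 to 12700 on WT embryo arrays. Of the muscle genes pvalb3 rose in yng embryos, by 1.60 ± 0.19 at 52 hpf (limma adjusted p = 1.38e-05) and by 1.31 ± 0.19 at 36 hpf (limma adjusted p = 0.000188), while pvalb1, pvalb2 and pvalb4 did not pass at either age. The parvalbumin gene pvalb5 fell in yng embryos, by 1.54 ± 0.18 at 52 hpf (limma adjusted p = 8.73e-06), with 896 to 991 in yng and 2473 to 2885 in WT embryos, and by 1.20 ± 0.18 at 36 hpf (limma adjusted p = 0.00021). In retinas pvalb5 read between 8.43 and 27.5 on every array, in both genotypes and at both ages. The calbindin gene calb1 also fell in yng embryos at 52 hpf, by 0.47 ± 0.14 (limma adjusted p = 0.0471), with 145 to 163 in yng and 194 to 242 in WT embryos, which did not overlap. At 36 hpf its difference in embryos was -0.17 ± 0.14 and did not pass (limma adjusted p = 0.605), and in retinas it read 34.1 to 75.4.

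Of 62 listed genes of EF-hand calcium buffers and sensors, pvalb5 and calb1 among them, 24 could be measured. In yng embryos at 52 hpf 1 rose and 4 fell, with a median of -0.02, where 2.77% of all probe sets were called higher and 3.13% lower. Beside pvalb5 and calb1 they were rcvrn2, a recoverin of photoreceptors (-1.09, limma adjusted p = 0.00279), hpca, which encodes hippocalcin, a neuronal calcium sensor (-0.55, limma adjusted p = 0.00283), and ncs1a, another neuronal calcium sensor (0.62, limma adjusted p = 0.0476), whose call was lost on the intensities as deposited. In yng embryos at 36 hpf 3 rose and 2 fell, with a median of 0.04, where 2.78% were called higher and 3.17% lower. The rises at 36 hpf included pvalb8, a parvalbumin (0.91, limma adjusted p = 0.00137), and chp2, a homologue of calcineurin B (0.84, limma adjusted p = 0.00067). In yng retinas at 36 hpf 3 rose and 3 fell, with a median of -0.06, where 4.19% were called higher and 4.9% lower. The falls there included efhd1, an EF-hand protein of mitochondria (-1.24, limma adjusted p = 0.00103), and rcvrn2 (-1.10, limma adjusted p = 0.00166), and the rises chp2 (1.13, limma adjusted p = 1.32e-05) and pvalb7, a parvalbumin that marks Purkinje cells in zebrafish (0.57, limma adjusted p = 0.0313). Over all probe sets the medians of these comparisons lay between 0.01 and 0.02.

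With age 6 of the 24 rose and 0 fell in WT embryos, and 3 rose and 1 fell in yng embryos, where 6.99% and 3.79% of all probe sets were called lower and 7.34% and 5.04% higher. The rises in WT embryos included rcvrn2 (2.13, limma adjusted p = 9.06e-07) and cib2, a calcium- and integrin-binding protein (0.91, limma adjusted p = 0.00107). In retinas at 52 hpf the genotype differences of the 24 ran from -2.09 for efhd1 to 1.27 for ncalda, a neurocalcin, with a median of -0.04. Between 52 and 36 hpf in WT retinas they ran from -0.98 for ncalda to 5.22 for rcvrn2, with a median of 0.10.

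Of 10 measured S100 genes, relatives with EF hands, 1 rose and 1 fell in yng embryos at 52 hpf, s100b by 0.98 ± 0.18 (limma adjusted p = 0.00133) and s100a1 by -0.92 ± 0.19 (limma adjusted p = 0.00451). In yng embryos at 36 hpf 1 rose and 2 fell, s100b by 2.88 ± 0.18 (limma adjusted p = 1.1e-09), s100a1 by -1.24 ± 0.19 (limma adjusted p = 0.000267) and s100v1 by -0.85 ± 0.13 (limma adjusted p = 0.000278). In yng retinas at 36 hpf 1 rose and 0 fell, s100b by 1.56 ± 0.18 (limma adjusted p = 4.43e-06). The 10 S100 genes together summed to only 213 to 325 in yng and 181 to 193 in WT retinas at 36 hpf. The s100b signal was no brighter than these sums. The shares of all probe sets are those given for the EF-hand list, 2.77% higher and 3.13% lower in embryos at 52 hpf, 2.78% and 3.17% in embryos at 36 hpf, and 4.19% and 4.9% in retinas at 36 hpf, and they hold for the next list as well. Of 16 measured calcium pumps, exchangers and channels 0 rose and 2 fell in yng embryos at 52 hpf, namely atp2b4, a calcium pump of the plasma membrane (-0.77, limma adjusted p = 0.0147), and cacna1ha, a T-type calcium channel (-0.45, limma adjusted p = 0.0431). In yng retinas at 36 hpf 0 rose and 2 fell, cacna1ha (-0.85, limma adjusted p = 0.000161) and atp2b3a, another pump of the plasma membrane (-0.94, limma adjusted p = 0.0363). In yng embryos at 36 hpf 0 of the 16 passed in limma's test, and 4 were lower at an unadjusted p below 0.05.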

How the data were processed

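RNA of 24 pools was measured on Affymetrix zebrafish arrays, with the two-cycle kit named per the labels' protocols. Values used are the deposited intensities, linear and 1 for each probe set on each array. Background correction, probe summary and scaling are not given in the sources used here. For each array a deposited text record was read only for fluidics station, module, order of hybridization days and wash errors; it recorded a wash error for replicate 1 of yng retinas at 36 hpf.

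Of 15617 probe sets 115 controls were removed. Of those left, 10795 had 1 symbol in the platform annotation, 135 had several and 4572 had none; 1 symbol was updated from the RefSeq annotation of the GRCz12tu assembly, used for names only. Array medians differed by up to 0.73 on the log2 scale, so intensities were quantile normalized and converted to log2(value + 16). A model with 1 mean per group was fitted to all 24 arrays with limma 3.58.1 in R 4.3.3 (16 residual and 4.25 prior degrees of freedom), and 9 contrasts were tested, two-sided, with Benjamini-Hochberg adjustment over 15502 probe sets and a threshold of 0.05. A further 6, which use retina arrays at 52 hpf, are described without a test. Arrays have no depth, and their number limits the precision.

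Genes named were the members, smarca4a, the 5 genes most correlated with each member over 8 group means (highest group mean at or above the median of all probe sets, a span of at least 1, no clone names), and up to 4 called members of each gene list with the largest difference. Family levels, marker genes of single results and the test between members were added after values were seen. Members and lists were chosen with earlier results of these data known. The pipeline was tested on simulated data.

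Replicate numbers may pair arrays. Arrays of the same number deviated together in 84 of 84 pairs (r at least 0.074, median 0.331, against -0.169 between numbers). Between the groups compared here, every pair was above 0.1 except in yng against WT retinas at 36 hpf. Deviations were taken from group means of 3 arrays, so the negative value between numbers follows from the positive one and is no separate evidence. Numbers 1, 2 and 3 matched hybridization days, except that replicate 3 of WT embryos at 52 hpf was on day 4. With the replicate number as a block no call of the 3 genes changed, while calls over all probe sets rose, as given with the alternatives. Alternatives were the deposited scale, offsets of 1 and 64, a filter on dim probe sets (at least 50 on 3 arrays), only the groups compared, no three-way interaction term, blocks for replicate number and hybridization day, and each array left out. Tables were made with Python 3.11.15 and pandas 2.3.3, plots with matplotlib 3.10.9.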

Additional observations from a re-analysis of the deposited data

How the results depend on the processing

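The model without the three-way interaction ties the other groups to the retinas at 52 hpf by its construction. It gave, for yng against WT retinas at 36 hpf, calb2a -0.83 (limma adjusted p = 0.039) and pvalb6 -0.55. For yng against WT embryos it gave calb2a -0.82 at 52 hpf (limma adjusted p = 0.0489), and calb2b 0.048 and pvalb6 0.44 at 36 hpf. For age in yng embryos it gave calb2a 0.28, calb2b -0.30 and pvalb6 -0.10, and for tissue at 36 hpf pvalb6 -0.93 in yng (limma adjusted p = 0.0155) and 0.065 in WT. Its interactions of genotype and tissue at 36 hpf were calb2a -1.41 (limma adjusted p = 0.00432), calb2b -0.89 and pvalb6 -0.99, and those of genotype and age in embryos calb2a -1.40, calb2b -2.21 and pvalb6 -1.92, all 3 passing.

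The calb2b difference in embryos at 36 hpf did not pass on the deposited scale (-0.71, limma adjusted p = 0.0511) or with an offset of 1 (-0.72, limma adjusted p = 0.112), nor did the age difference of calb2a in yng embryos with an offset of 1 (0.77, limma adjusted p = 0.0734). Tissue in yng at 36 hpf gave pvalb6 -0.59 on the deposited scale. Among values without a test, the deposited scale gave yng against WT retinas at 52 hpf as calb2a -2.89 and calb2b -3.98, age in retinas as pvalb6 0.095 in yng and 3.75 in WT, and tissue at 52 hpf as calb2a -2.21, calb2b -0.88 and pvalb6 -1.26 in yng, and 0.36, 1.77 and 1.36 in WT. An offset of 64 gave yng against WT retinas at 52 hpf as calb2a -2.54, calb2b -3.63 and pvalb6 -2.59, age in yng retinas as calb2a 1.23 and calb2b 1.79, age in WT retinas as calb2b 5.34 and pvalb6 2.73, tissue at 52 hpf as calb2a -1.62 and pvalb6 -0.54 in yng and pvalb6 1.56 in WT, and older yng against younger WT retinas as calb2b 1.71. With an offset of 1 pvalb6 was -3.63 between yng and WT retinas at 52 hpf and 3.96 for age in WT retinas, and calb2b 2.58 for age in yng retinas. The block for hybridization day gave tissue in WT at 52 hpf as calb2a 0.67 and calb2b 2.08. The causes were not tested.

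Leaving out 1 array at a time gave, for yng against WT retinas at 36 hpf, calb2a -0.56 to 0.071 and calb2b -0.46 to 0.22; for embryos at 52 hpf pvalb6 -0.77 to -0.58 and at 36 hpf calb2a -0.066 to 0.23 and calb2b -0.77 to -0.61; for age in yng embryos calb2a 0.63 to 0.93 and pvalb6 0.57 to 0.84; for age in yng retinas pvalb6 -0.16 to 0.14; for tissue in yng at 36 hpf pvalb6 -0.27 to 0.008; and for genotype and tissue at 36 hpf calb2b 0.24 to 0.91. The other values of the 3 genes kept their direction and their side of the threshold in these leave-outs, which took out only arrays of the groups compared.

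The counts of called probe sets moved more than those of the 3 genes. With the replicate block they were 2865 (1408 without it) for yng against WT retinas at 36 hpf, 2116 (915) for embryos at 52 hpf, 2247 (922) for embryos at 36 hpf, 2775 (1369) and 3893 (2221) for age in yng and WT embryos, 816 (367) for genotype and tissue and 66 (30) for genotype and age. The block changed no call of the 3 genes. The block for day gave 2793, 1458, 2198, 2724 and 765 for retinas at 36 hpf, embryos at 52 and 36 hpf, age in yng embryos and genotype and tissue. The model without the three-way term gave 2188, 1650 and 1530 for genotype in the same order, 1238 for genotype and tissue and 320 for genotype and age. Fits on only the groups compared gave 331 for retinas and 449 for embryos at 36 hpf and 184 for genotype and tissue. Genotype and age gave 12 and 47 with offsets of 1 and 64. The counts fell to 603 for embryos at 52 hpf without replicate 3 of yng, 593 and 590 at 36 hpf without replicates 1 and 2 of WT, 787 and 821 for age in yng embryos without replicate 3 at 36 hpf and replicate 1 at 52 hpf, and 19 and 18 for genotype and age without replicates 2 and 3 of yng embryos at 52 hpf. Of the probe sets called with age in yng embryos 57.1% were higher, against 68.1% as deposited. Dim signals limit pvalb6, and calb2b in retinas at 36 hpf, where intensities of 21.6 to 80.5 lie near the offset.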
